A study of Homo sapiens with 26 samples.

Results

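Gene expression was compared between parental A375 cells treated for 6 h with the BET bromodomain inhibitor CPI203 and parental A375 cells treated for 6 h with its solvent DMSO. A375 is a long-established line of human melanoma whose BRAF kinase is mutant. There were 2 RNA sequencing libraries for 1 uM CPI203 and 2 for DMSO, and 2 libraries of untreated parental cells taken at 0 h served as a reference level. These 6 libraries belong to a series of 26. All 6 came from the parental line as it is, with no added allele or second agent, so the comparison covers 1 cell line, 1 dose and 1 time. The labels do not say whether the replicates were separate cultures, and the p-values rest on how far libraries of a group lay apart, which can be technical variation alone. The genes described are the 15454 of 63129 in the deposited table that reached 1 FPKM (a fragment count divided by transcript length and by the library's mapped total) in at least 2 of the 4 treated libraries.

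BET proteins, among them BRD2 and BRD3, bind acetylated lysines on histone tails through paired bromodomains. At active genes and enhancers the family helps to bring in Mediator and the kinase complex P-TEFb, which releases RNA polymerase II from its pause near the start site. BET inhibitors occupy the acetyl-lysine pocket, and transcripts with short half-lives and strong enhancers are known to be sensitive to them.

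The 4 libraries expressed the lineage genes of melanoma cells but not the pigment genes. Of 9 melanocyte markers 5 were under 1 FPKM in all 6 parental libraries: DCT, MLANA, PMEL, TYRP1 and TYR, the last at 0. The other 4, MITF, SOX10, PAX3 and S100B, were expressed, and SOX10 stood at 299 and 309 FPKM in DMSO and 248 and 258 FPKM in CPI203. Markers of blood cells summed to 6.08 and 5.90 FPKM in DMSO and to 3.52 and 3.54 FPKM in CPI203, with HBB and MS4A1 at 0. LYZ made up most of this sum, and the other 12 markers were under 1 FPKM in all 6 libraries. LYZ stood at 5.59 and 5.59 FPKM in DMSO, 3.19 and 2.96 FPKM in CPI203 and 2.54 and 2.44 FPKM in untreated cells. Endothelial markers summed to 5.96 and 7.28 FPKM in DMSO and to 3.23 and 2.82 FPKM in CPI203, with PECAM1 at 0. ROBO4 made up most of the endothelial sum in DMSO, and the other described member, KDR, stood at 0.694 and 0.923 FPKM in DMSO and 1.52 and 1.47 FPKM in CPI203 and did not pass (adjusted p = 0.0957). Fibroblast markers summed to 6.05 and 6.10 FPKM in DMSO and to 4.04 and 3.67 FPKM in CPI203. Keratinocyte and epithelial markers summed to 134 and 110.4 FPKM in DMSO and to 100.9 and 104 FPKM in CPI203, with CDH1 at 0. Of the 48 markers of these 4 other cell types 10 were among the genes described, and 4 of them fell: CLDN4, PDGFRB, ROBO4 and LYZ.

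The DMSO libraries differed from each other more than the CPI203 libraries did. The median absolute log2 difference between replicates, over the genes fitted, was 0.218 for DMSO, 0.0751 for CPI203 and 0.0835 for untreated cells. Values summed to 555182 and 511815 FPKM in DMSO and to 526698 and 526445 FPKM in CPI203. The difference between the DMSO libraries ran with transcript length. DMSO replicate 1 was higher than replicate 2 by a median of 0.24 on the log2 scale for genes whose longest transcript is under 500 bases, and lower by 0.40 (median difference -0.40) for those of 8000 bases or more. The change with CPI203 carried the same trend, with medians of -0.04 in the shortest bin and 0.21 in the longest. Against DMSO replicate 1 alone these medians were -0.15 and 0.39, and against replicate 2 alone they were 0.08 and 0.01. Results that lost their call, or counts that moved by more than 1.5 times, without 1 library are given with that value. Counts of list members that moved that far after a correction for transcript length and GC content are given beside them as corrected counts.

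**Figure D1:**
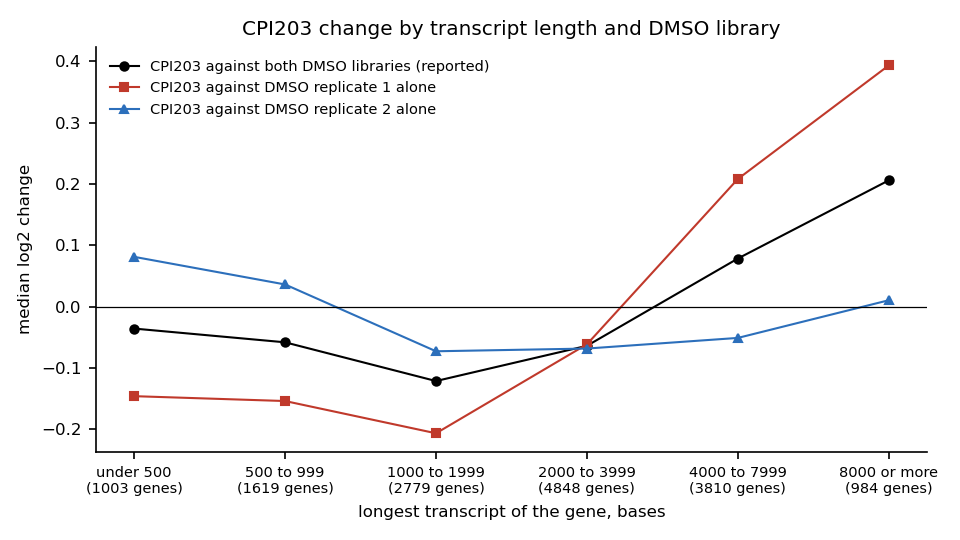
Median log2 change of FPKM + 1 with CPI203 (vertical axis) for described genes grouped by the length of their longest transcript in bases (horizontal axis, number of genes in brackets). The black line is the reported comparison with both DMSO libraries, and the red and blue lines use DMSO replicate 1 or 2 alone; the lines part in the longest bin, at 0.39 against replicate 1 and 0.01 against replicate 2.

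More genes fell than rose, and changes were mostly below 2-fold. With limma on log2(FPKM + 1), 2460 genes (15.9% of those described) were higher with CPI203 and 3377 (21.9%) were lower at an adjusted p below 0.05, so that 5837 (37.8%) passed in either direction. Among genes that passed, the median log2 change was 0.59 for the higher and -0.65 for the lower. A log2 change of at least 1 was reached by 342 higher genes (2.21%) and 659 lower genes (4.26%), and one of at least 2 by 24 and 52 genes. In both CPI203 libraries, 212 genes reached 1 FPKM that were under it in both DMSO libraries, and 506 genes showed the opposite. The 4 compared libraries did not overlap by group for 10600 genes (68.6%), which include every gene that passed. The number of higher genes was 1553 without DMSO replicate 1, 1512 without CPI203 replicate 1 and 1517 without CPI203 replicate 2, and 1185 higher and 2074 lower genes passed without each of the 4 libraries in turn. A fit of the 4 libraries alone, with 2 residual degrees of freedom in place of the spread shared by 18 A375 libraries, 12 of them from resistant clones, gave 1398 higher and 2326 lower genes.

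**Figure D2:**
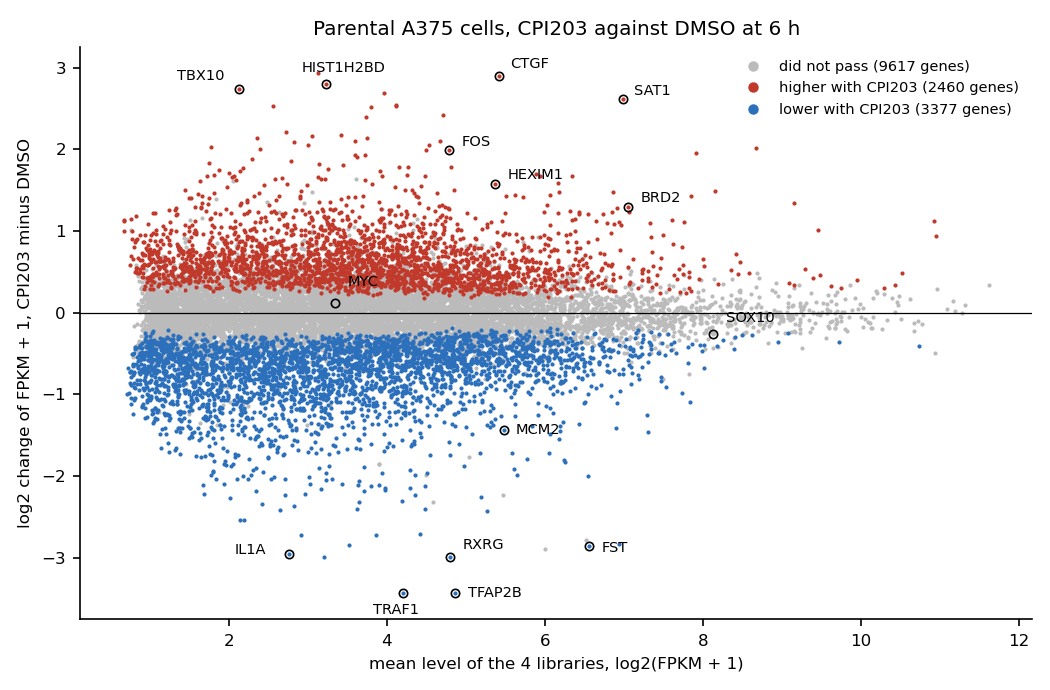
Each point is 1 of the 15454 described genes, with the mean level of the 4 libraries as log2(FPKM + 1) on the horizontal axis and the log2 change of FPKM + 1 with CPI203 on the vertical axis. Red and blue points passed (2460 higher, 3377 lower) and grey points did not; black rings mark genes named in the text, from CTGF at 2.90 to TRAF1 at -3.43.

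The genes with the largest rises were a mixed group led by a secreted matrix factor, a neighbouring pair on chromosome 11 and histone genes. CTGF (chr6:132269316-132272513 in hg19), a matricellular protein and a common readout of YAP and TEAD, stood at 8.87 and 9.41 FPKM in DMSO and 74.05 and 75.2 FPKM in CPI203, a log2 change of 2.90 ± 0.08 (SE) (limma adjusted p = 3.38e-10). The untreated cells held 2.85 and 3.302 FPKM, below both treated groups. SAT1 (chrX:23801290-23804343), the enzyme that acetylates spermidine and spermine for breakdown and export, rose from 36.2 and 33.1 FPKM to 223 and 213 FPKM (log2 change 2.62 ± 0.11, adjusted p = 1.18e-08). The WNT ligand WNT9A (chr1:228106357-228135631) rose from 2.97 and 3.45 FPKM to 25.7 and 26.4 FPKM (log2 change 2.69 ± 0.10, adjusted p = 1.91e-09), and DKK1, a secreted antagonist of WNT co-receptors, rose from 6.596 and 7.87 FPKM to 44.01 and 42.04 FPKM (log2 change 2.42 ± 0.14, adjusted p = 1.28e-07). In all of these genes both CPI203 libraries lay above both DMSO libraries and both untreated libraries.

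The T-box gene TBX10 (chr11:67398774-67407031) was almost silent in DMSO, at 0.0396 and 0.236 FPKM, and reached 7.25 and 5.99 FPKM in CPI203 (log2 change 2.74 ± 0.11, adjusted p = 4.97e-09). The noncoding gene RP11-655M14.13 (chr11:67385750-67394775) lies on the other side of the small gene NUDT8 and rose from 1.402 and 0.695 FPKM to 14.6 and 14.3 FPKM (log2 change 2.94 ± 0.18, adjusted p = 1.63e-07). NUDT8 itself (chr11:67395409-67397401), chosen here after its values were seen because it lies between them, rose from 3.23 and 2.84 FPKM to 11.2 and 10.6 FPKM, a log2 change of 1.56. Whether the libraries keep strand is not given in the sources used here, so reads that run from one of these 3 genes into the next cannot be told from separate expression. A further large rise outside the histones was that of RP11-946L20.2, a noncoding gene, at 0.768 and 0.707 FPKM in DMSO and 8.897 and 9.13 FPKM in CPI203.

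The 12 largest falls were a mixed group of coding and noncoding genes. TRAF1 (chr9:123664671-123691451), an adaptor of TNF receptors and itself a target of NF-kB, fell from 33.2 and 31.99 FPKM to 2.27 and 1.96 FPKM, a log2 change of -3.43 ± 0.09 (SE) (adjusted p = 3.38e-10). TFAP2B (chr6:50786436-50815326), an AP-2 transcription factor of neural crest derivatives, fell from 45.8 and 58.8 FPKM to 4.097 and 3.72 FPKM (log2 change -3.43 ± 0.11, adjusted p = 1.02e-09). RXRG (chr1:165370159-165414433), the gamma form of the retinoid X receptor, fell from 50.4 and 46.7 FPKM to 5.31 and 5.16 FPKM (log2 change -2.99 ± 0.09, adjusted p = 8.42e-10). In all 3 genes the untreated libraries also lay far above the CPI203 libraries, so the fall holds against either reference.

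FST (chr5:52776239-52782964), which binds and neutralises activins, fell from 164 and 166 FPKM to 22.7 and 21.2 FPKM (log2 change -2.85 ± 0.13, adjusted p = 1.52e-08). LOXL4 (chr10:100007447-100028007), a lysyl oxidase that crosslinks collagen, fell from 214 and 212 FPKM to 27.8 and 30.2 FPKM, and the untreated cells held 599 and 558 FPKM. IL1A (chr2:113531492-113542167), interleukin 1 alpha, fell from 10.5 and 11.4 FPKM to 0.558 and 0.525 FPKM (log2 change -2.96 ± 0.11, adjusted p = 3.32e-09). PTGES, the inducible synthase of prostaglandin E2, fell from 35.4 and 36.9 FPKM to 4.07 and 5.39 FPKM (log2 change -2.71 ± 0.12, adjusted p = 1.27e-08). Of 8 described genes of prostaglandin synthesis it was 1 of 2 that fell, and the other was PLA2G16, a phospholipase, which fell from 25.8 and 19.8 FPKM to 14.7 and 13.4 FPKM (log2 change -0.66 ± 0.18, adjusted p = 0.011) and was lost without DMSO replicate 1 or CPI203 replicate 2. The glycosyltransferase gene B3GNT7 fell by a log2 change of -2.99, the anchoring filament gene LAD1 by -2.72 and C15orf52 by -2.84. The noncoding genes LINC00277 and AC017104.6 had log2 changes of -2.54 and -2.54. For the 12 largest falls, the untreated mean lay beyond the DMSO mean, on the far side from CPI203, in 8 genes and between DMSO and CPI203 in 4. For the 12 largest rises it lay beyond DMSO in 5 and between DMSO and CPI203 in 7. All 24 genes were selected to pass without each of the 4 libraries in turn.

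**Figure D3:**
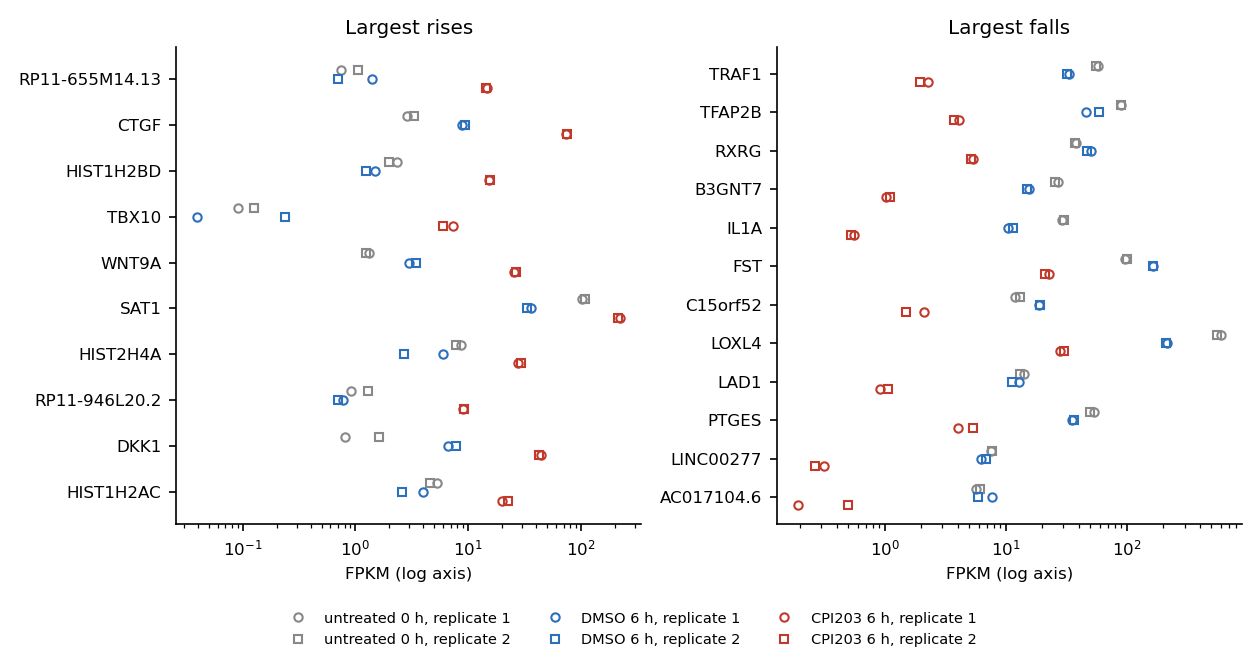
FPKM on a log axis for genes with values given here among the 12 with the largest rises (left) and the 12 with the largest falls (right), for each of the 6 parental libraries. Circles and squares are replicates 1 and 2 of untreated (grey), DMSO (blue) and CPI203 (red) cells; the genes were selected for red marks that lie apart from the blue ones, and the grey marks, which the selection did not use, vary in place. TRAF1 stands at 2.27 and 1.96 against 33.2 and 31.99 FPKM.

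Genes of the BET and P-TEFb machinery showed the rise of HEXIM1 that is widely used as a marker of BET inhibition. HEXIM1 (chr17:43224684-43229468), the protein that holds P-TEFb inactive in the 7SK particle, stood at 19.5 and 20.001 FPKM in DMSO and 61.9 and 60.3 FPKM in CPI203, a log2 change of 1.58 ± 0.09 (SE) (adjusted p = 9.84e-08). The untreated libraries held 17.9 and 17.9 FPKM, close to DMSO. Its paralog HEXIM2, with the same role, moved the other way, from 10.003 and 8.88 FPKM to 3.17 and 2.67 FPKM (log2 change -1.42 ± 0.16, adjusted p = 2.82e-05). BRD2 (chr6:32936437-32949282) rose from 71.7 and 79.5 FPKM to 190.02 and 185 FPKM (log2 change 1.30 ± 0.11, adjusted p = 1.65e-06), and ELL2, an elongation factor of the super elongation complex, rose from 1.48 and 1.93 FPKM to 6.55 and 5.97 FPKM (log2 change 1.43 ± 0.16, adjusted p = 1.97e-05). BRD3 stood at 9.85 and 13.8 FPKM in DMSO and 12.5 and 11.5 FPKM in CPI203 (adjusted p = 0.914). It did not pass, and its DMSO values enclosed its CPI203 values.

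Of 27 described genes on the list of BET proteins, P-TEFb and pause release factors, 9 rose (33.3%) and 2 fell, with a median log2 change of 0.38 against -0.03 over all described genes. The number that rose was 5 without DMSO replicate 1, and 1 fell without CPI203 replicate 2. POLR2A, the largest subunit of RNA polymerase II and a member of this list chosen for mention after its values were seen, rose from 28.4 and 49.02 FPKM to 116 and 126 FPKM (log2 change 1.67 ± 0.25, adjusted p = 0.000256). The other 12 described genes for polymerase II subunits did not pass, with log2 changes from -0.38 to 0.43, but with the correction for transcript length and GC content 4 of the 13 were higher and 1 was lower.

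Genes of histones that reach polyadenylated RNA were higher in most cases. Replication-dependent histone mRNAs end in a stem-loop and carry no poly(A) tail in S phase, while some of these genes also make polyadenylated transcripts, which are known from differentiated and non-dividing cells. Of 22 described histone genes 15 rose (68.2%), none fell, and the median log2 change was 1.24. The count was 14 to 19 without any 1 of the 4 libraries, and 1 gene fell without DMSO replicate 2. HIST1H2BD (chr6:26158349-26171577) rose from 1.496 and 1.25 FPKM to 15.4 and 15.5 FPKM (log2 change 2.80 ± 0.13, adjusted p = 1.87e-08), and HIST1H2AC rose from 3.96 and 2.59 FPKM to 20.1 and 22.7 FPKM (log2 change 2.40 ± 0.16, adjusted p = 3.85e-07). HIST1H2BK rose from 8.09 and 7.92 FPKM to 36.7 and 35.9 FPKM (log2 change 2.05 ± 0.11, adjusted p = 7.89e-08), and HIST2H2BE rose from 2.49 and 1.62 FPKM to 12.5 and 12.6 FPKM (log2 change 2.16 ± 0.13, adjusted p = 2.08e-07). In these 4 genes every CPI203 library lay above every DMSO and untreated library. HIST2H4A stood at 5.92 and 2.71 FPKM in DMSO and 27.4 and 29.4 FPKM in CPI203, and HIST2H4B, a near-identical copy on chromosome 1, had almost the same values, so that reads cannot be assigned to either with certainty. H1F0, the replacement linker histone, whose mRNA is polyadenylated, rose from 135 and 136 FPKM to 292 and 298 FPKM (log2 change 1.12 ± 0.09, adjusted p = 1.43e-06) and was chosen for mention after its values were seen. DMSO replicate 1 lay above replicate 2 in every described member but H1F0, and in HIST1H2AE, HIST1H3D, HIST1H3H and HIST2H2AC, which did not pass, it exceeded at least 1 CPI203 library.

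Promoter sequences of 3 of these genes show the letters they share. They are the 250 bases before the RefSeq start site in GRCh38.p14, written 5′ to 3′ on the strand of the gene, with capitals marking the TATA box letters TATAAA and the CCAAT box letters CCAAT on either strand. The HIST1H2BD window is chr6:26157871-26158120 (plus strand), the HIST1H2AC window chr6:26123922-26124171 (plus strand) and the HIST2H2BE window chr1:149886683-149886932 (minus strand).
HIST1H2BD: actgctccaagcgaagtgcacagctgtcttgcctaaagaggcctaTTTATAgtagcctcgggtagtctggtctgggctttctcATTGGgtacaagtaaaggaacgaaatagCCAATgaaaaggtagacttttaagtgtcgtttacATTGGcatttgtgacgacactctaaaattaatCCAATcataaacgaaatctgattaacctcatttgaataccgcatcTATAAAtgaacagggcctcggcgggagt
HIST1H2AC: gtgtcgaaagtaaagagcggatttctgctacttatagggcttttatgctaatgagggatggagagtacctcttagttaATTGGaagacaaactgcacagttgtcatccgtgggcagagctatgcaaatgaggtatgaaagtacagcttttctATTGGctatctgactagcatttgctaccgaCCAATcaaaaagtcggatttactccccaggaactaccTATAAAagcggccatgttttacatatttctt
HIST2H2BE: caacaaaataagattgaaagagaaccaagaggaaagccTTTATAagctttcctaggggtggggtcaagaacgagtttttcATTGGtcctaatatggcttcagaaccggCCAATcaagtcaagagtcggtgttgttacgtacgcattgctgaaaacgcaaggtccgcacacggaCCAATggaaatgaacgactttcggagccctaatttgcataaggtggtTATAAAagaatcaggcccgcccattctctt
Each has TATAAA about 30 bases before the start site, at -28, -31 and -30, with several CCAAT boxes upstream. Among the 11 histone genes that rose and had a RefSeq promoter, 10 held CCAAT (90.9%) and 8 held TATAAA (72.7%). CCAAT was held by 33.0% and TATAAA by 11.1% of all 27305 RefSeq promoters, and of the 9869 described genes with a promoter the shares were 36.0% and 5.15%. Histone promoters are known for both elements, so the shares describe the gene family and not the response.

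Genes of the inflammatory and interferon programs were lower with CPI203 more often than genes overall. NF-kB is a family of dimeric transcription factors held in the cytoplasm by IkB proteins; in melanoma cells it is often active and drives cytokines such as interleukin 8. Of 34 described interferon response genes 21 fell (61.8%) and 3 rose, with a median log2 change of -0.80. Of 18 described cytokines, chemokines and their receptors 11 fell (61.1%) and 3 rose, with a median of -0.47. Of 25 described NF-kB subunits and feedback genes 7 fell (28.000%) and 2 rose, nearer to the 21.9% of all genes; the 2 were 1 without DMSO replicate 1 or CPI203 replicate 2 and 4 without DMSO replicate 2. The counts of genes that fell stayed within 20 to 23, 9 to 11 and 6 to 7 without any 1 library. The 3 cytokine genes that rose were 1 without DMSO replicate 1 or CPI203 replicate 1, 2 without CPI203 replicate 2 and 5 without DMSO replicate 2. The corrected counts of rises were 5 for interferon response genes and 4 for NF-kB subunits and feedback genes.

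Among ligands, IL8, the neutrophil chemokine, fell from 33.5 and 33.7 FPKM to 13.8 and 13.4 FPKM (log2 change -1.25 ± 0.09, adjusted p = 5.07e-07), with 159 and 159 FPKM in untreated cells. LIF, a cytokine of the interleukin 6 family, fell from 18.2 and 21.1 FPKM to 3.38 and 2.46 FPKM (log2 change -2.40 ± 0.12, adjusted p = 4.15e-08). TNFSF9, the ligand of the costimulatory receptor 4-1BB, rose from 5.24 and 5.34 FPKM to 14.2 and 13.1 FPKM (log2 change 1.22 ± 0.17, adjusted p = 0.000122). For IL8 and LIF, as for IL1A, the order of levels was untreated, DMSO, CPI203 from high to low, with no overlap between groups.

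Among subunits and regulators, NFKB1, which encodes the p50 subunit, fell from 34.95 and 34.9 FPKM to 14.8 and 15.7 FPKM (log2 change -1.15 ± 0.09, adjusted p = 1.45e-06). IKBKE, a kinase of the IkB kinase family that acts on interferon regulatory factors, fell from 3.86 and 3.88 FPKM to 1.88 and 1.79 FPKM (log2 change -0.78 ± 0.12, adjusted p = 0.000295). NFKBIZ, a nuclear IkB protein that coactivates a subset of NF-kB targets, rose from 2.83 and 3.87 FPKM to 14.2 and 13.1 FPKM (log2 change 1.76 ± 0.15, adjusted p = 3.22e-06). The subunit and the coactivator therefore moved in opposite directions within 1 pathway.

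Interferon-induced genes include antiviral effectors and the transcription factors that induce them. The effector OAS1, which makes the activator of RNase L, fell from 6.05 and 7.03 FPKM to 1.84 and 1.48 FPKM (log2 change -1.504 ± 0.13, adjusted p = 2.45e-06). GBP1, a guanylate-binding GTPase, fell from 3.701 and 4.08 FPKM to 0.885 and 0.668 FPKM (log2 change -1.46 ± 0.10, adjusted p = 4.26e-07), and IFI16, a nuclear DNA sensor, fell from 64.4 and 65.4 FPKM to 34.2 and 34.5 FPKM (log2 change -0.90 ± 0.09, adjusted p = 1.09e-05). 2 transcription factors of the list moved the other way. IRF7, the regulator of type I interferon genes, rose from 2.91 and 2.88 FPKM to 12.4 and 13.02 FPKM (log2 change 1.82 ± 0.19, adjusted p = 1.33e-05). STAT3, a transcription factor activated by cytokine receptors, rose from 24.999 and 33.8 FPKM to 56.8 and 60.1 FPKM (log2 change 0.98 ± 0.17, adjusted p = 0.000733). Both passed without each of the 4 libraries in turn, so these factors and the effectors above moved apart.

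Promoters of genes on these lists that fell are shown for the letters known to bind interferon and NF-kB factors. Capitals mark GAAA, any 2 bases and GAAA again, the core of the interferon-stimulated response element, in IFIT3 and GBP1, and GGG, any 2 bases and TTTCC, an NF-kB site, in CXCL1 and NFKB1, each on either strand. The windows are chr10:89327747-89327996 (plus strand), chr1:89065209-89065458 (minus strand), chr4:73869143-73869392 (plus strand) and chr4:102501109-102501358 (plus strand) in GRCh38.p14.
IFIT3: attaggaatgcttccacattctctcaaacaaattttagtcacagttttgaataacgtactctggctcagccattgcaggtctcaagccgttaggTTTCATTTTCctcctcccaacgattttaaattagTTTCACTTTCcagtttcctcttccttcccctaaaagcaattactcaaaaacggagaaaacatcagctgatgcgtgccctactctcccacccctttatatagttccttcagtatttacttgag
GBP1: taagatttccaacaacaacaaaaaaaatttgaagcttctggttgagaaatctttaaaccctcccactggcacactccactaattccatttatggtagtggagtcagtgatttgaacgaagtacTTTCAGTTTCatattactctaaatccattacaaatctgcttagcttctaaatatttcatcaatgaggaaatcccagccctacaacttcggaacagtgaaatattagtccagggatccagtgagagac
CXCL1: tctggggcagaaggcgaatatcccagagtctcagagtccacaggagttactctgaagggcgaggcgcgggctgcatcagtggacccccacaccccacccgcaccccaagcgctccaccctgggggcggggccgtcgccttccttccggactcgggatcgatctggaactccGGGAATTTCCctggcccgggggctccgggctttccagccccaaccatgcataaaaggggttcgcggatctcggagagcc
NFKB1: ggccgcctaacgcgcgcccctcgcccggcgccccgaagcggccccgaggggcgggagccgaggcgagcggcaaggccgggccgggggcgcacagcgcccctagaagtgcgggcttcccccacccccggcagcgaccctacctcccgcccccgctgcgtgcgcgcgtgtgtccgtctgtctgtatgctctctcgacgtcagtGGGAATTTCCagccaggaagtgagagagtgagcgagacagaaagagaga
IFIT3, an inhibitor of viral replication, fell by a log2 change of -1.05, and CXCL1, a neutrophil chemokine, by -1.24; both were chosen for the letters in their promoters. The GAAA pair with any 2 bases between was found in 10 of the 15 interferon response genes that fell and had a promoter (66.7%), against 2.30% of described genes and 3.07% of all RefSeq promoters. GGG and TTTCC with any 2 bases between were found in 5 of 13 genes of the NF-kB and cytokine lists that fell (38.5%), against 2.02% and 1.73%. Both lists were built from known targets of these factors, so the shares describe how the lists were drawn.

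Genes of antigen presentation fell at a share near that of all genes. Of 28 described genes of antigen presentation and checkpoint ligands 8 fell (28.6%, against 21.9% of all described genes) and 2 rose (7.14%, against 15.9%). CIITA, the master regulator of HLA class II genes, fell from 20.205 and 21.95 FPKM to 9.895 and 10.1 FPKM (log2 change -1.002 ± 0.08, adjusted p = 1.24e-06), and the immunoproteasome subunit PSMB8 fell from 29.2 and 23.96 FPKM to 14.96 and 15.1 FPKM (log2 change -0.77 ± 0.13, adjusted p = 0.000521). The checkpoint ligand CD276 fell from 80.8 and 67.5 FPKM to 43.9 and 43.7 FPKM, a log2 change of -0.74. MICA, a stress ligand of the receptor NKG2D on natural killer cells, rose from 8.66 and 7.204 FPKM to 15.9 and 16.5 FPKM (log2 change 0.95 ± 0.11, adjusted p = 3.41e-05). CD274, which encodes PD-L1, was near the limit of description at 1.98 and 1.11 FPKM in DMSO and 0.758 and 1.03 FPKM in CPI203 and did not pass (adjusted p = 0.0548), although it passed without DMSO replicate 2 (adjusted p = 0.00506).

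**Figure D4:**
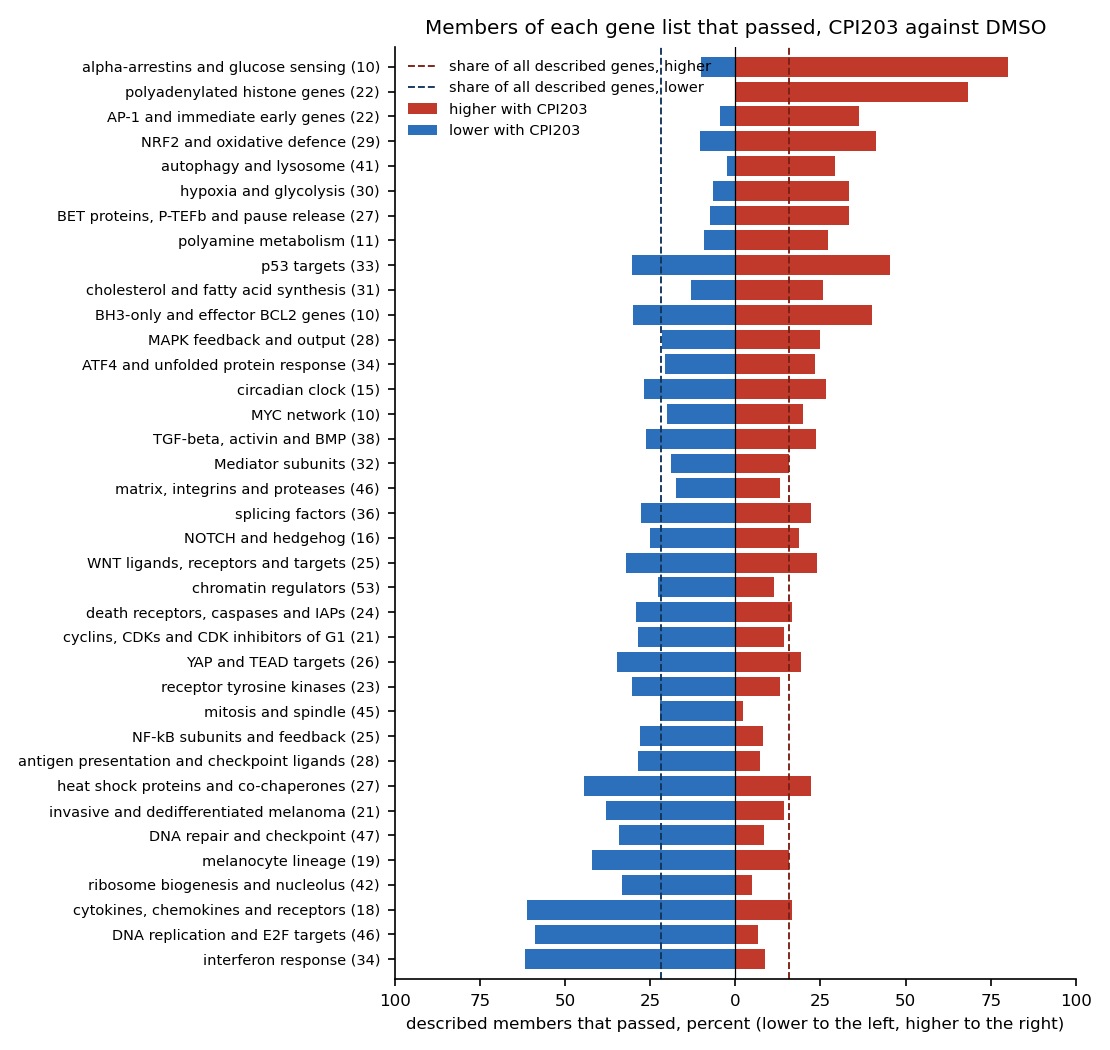
Share of described members that were higher (red, to the right) or lower (blue, to the left) with CPI203 at an adjusted p below 0.05, for gene lists with at least 10 described members (number in brackets). Dashed lines mark the same shares over all described genes, 15.9% higher and 21.9% lower; alpha-arrestin and histone genes stand at the top and interferon, replication and cytokine genes at the bottom.

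In the melanocyte lineage, factors and surface markers did not move as 1 block. Of 19 described lineage genes 8 fell (42.1%) and 3 rose (15.8%), against 21.9% and 15.9% of all described genes. Their median log2 change was -0.31. MITF, the master transcription factor of melanocytes, stood at 7.85 and 12.5 FPKM in DMSO and 16.1 and 15.4 FPKM in CPI203, with 13.9 and 16.1 FPKM in untreated cells (log2 change 0.62 ± 0.21, adjusted p = 0.0388). That call was lost without DMSO replicate 1 (adjusted p = 0.345), CPI203 replicate 1 (0.149) or CPI203 replicate 2 (0.110), and the 3 lineage genes that rose were 1 without each of these libraries. SOX10, the neural crest factor that induces MITF, did not pass (log2 change -0.26, adjusted p = 0.0867). LEF1, a transcription factor of the WNT pathway that works with MITF in melanocytes, fell from 39.9 and 41.9 FPKM to 15.9 and 14.2 FPKM (log2 change -1.39 ± 0.10, adjusted p = 7.5e-07). NGFR, the nerve growth factor receptor of neural crest-like melanoma cells, rose from 2.72 and 3.44 FPKM to 5.65 and 5.81 FPKM (log2 change 0.73 ± 0.12, adjusted p = 0.000529).

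Genes of the invasive, dedifferentiated melanoma state were also split, with 14.3% higher and 38.1% lower, against 15.9% and 21.9% of all described genes. Of 21 described, 8 fell (38.1%) and 3 rose; the 3 were 5 without DMSO replicate 2, and the 8 were 5 without DMSO replicate 2, 5 without CPI203 replicate 1 and 4 without CPI203 replicate 2. The corrected count of rises was 7. IGFBP3, a secreted carrier of insulin-like growth factors, fell from 144 and 153 FPKM to 35.7 and 36.8 FPKM (log2 change -2.003 ± 0.07, adjusted p = 1.25e-09). LOXL2, a lysyl oxidase, rose from 19.9 and 23.9 FPKM to 31.6 and 34.3 FPKM (log2 change 0.57 ± 0.09, adjusted p = 0.000487), while LOXL4 was among the largest falls. NT5E, the ectonucleotidase CD73, rose from 35.4 and 42.1 FPKM to 56.7 and 59.4 FPKM (log2 change 0.58 ± 0.12, adjusted p = 0.00191).

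Receptor tyrosine kinases changed in both directions, with the fibroblast growth factor receptors higher. Of 23 described receptors 7 fell (30.4%) and 3 rose (13.0%), against 21.9% and 15.9% of all described genes. FGFR3 rose from 2.38 and 2.33 FPKM to 7.49 and 7.97 FPKM (log2 change 1.38 ± 0.11, adjusted p = 1.36e-06), FGFR4 rose from 5.71 and 5.21 FPKM to 11.4 and 12.8 FPKM (log2 change 1.02 ± 0.14, adjusted p = 0.000114) and FGFR1 rose from 13.4 and 17.8 FPKM to 29.8 and 32.002 FPKM (log2 change 0.96 ± 0.16, adjusted p = 0.000425). These were the 3 receptors of the list that rose, and each passed without each library in turn; 5 rose without DMSO replicate 2, and the corrected count was 5. DDR1, a collagen receptor, fell from 17.3 and 18.8 FPKM to 6.39 and 5.96 FPKM (log2 change -1.41 ± 0.10, adjusted p = 5.08e-07). ERBB3, the neuregulin receptor, fell from 97.5 and 118 FPKM to 55.6 and 57.1 FPKM (log2 change -0.92 ± 0.10, adjusted p = 1.47e-05), and TYRO3, a receptor of the TAM family, fell from 11.2 and 10.5 FPKM to 3.95 and 4.02 FPKM (log2 change -1.25 ± 0.10, adjusted p = 1.24e-06).

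Downstream of the receptors, feedback and output genes of the MAPK pathway changed in both directions. Of 28 described genes 7 rose and 6 fell (21.4%), against 15.9% and 21.9% of all genes, and the 6 were 4 without DMSO replicate 2 or either CPI203 library. SPRY4, a feedback inhibitor of receptor signalling, fell from 88.6 and 107 FPKM to 33.95 and 34.1 FPKM (log2 change -1.49 ± 0.15, adjusted p = 1.33e-05), and untreated cells held 194 and 194 FPKM. ETV4, an ETS factor induced by ERK, fell from 115 and 96.7 FPKM to 36.8 and 39.5 FPKM (log2 change -1.44 ± 0.13, adjusted p = 4.58e-06). EGR1, an immediate early zinc finger factor, rose from 33.3 and 52.03 FPKM to 102 and 95.7 FPKM (log2 change 1.22 ± 0.15, adjusted p = 3.91e-05), and DUSP1, a phosphatase that inactivates MAP kinases, rose from 4.799 and 5.04 FPKM to 11.2 and 9.42 FPKM (log2 change 0.93 ± 0.12, adjusted p = 6.33e-05).

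AP-1 and immediate early genes were higher more often than genes overall. AP-1 is a dimer of FOS, JUN and ATF proteins, and its genes are induced within minutes and then switched off. Of 22 described genes 8 rose (36.4%) and 1 fell, with a median log2 change of 0.25, and 6 to 8 rose without any 1 library; the corrected counts were 13 and 2. FOS rose from 8.99 and 11.2 FPKM to 45.8 and 40.5 FPKM (log2 change 1.996 ± 0.14, adjusted p = 6.03e-07), with 27.3 and 24.2 FPKM in untreated cells. ATF3, a stress-induced repressor of the family, rose from 1.496 and 1.52 FPKM to 6.01 and 4.63 FPKM (log2 change 1.32 ± 0.12, adjusted p = 4.88e-06). ZFP36, which binds AU-rich elements and speeds the decay of cytokine mRNAs, rose from 7.48 and 8.57 FPKM to 28.5 and 27.4 FPKM (log2 change 1.69 ± 0.13, adjusted p = 9.69e-07). NR4A2, an orphan nuclear receptor, was the 1 gene that fell, from 6.899 and 8.402 FPKM to 4.03 and 3.89 FPKM (log2 change -0.80 ± 0.12, adjusted p = 0.000255). The AP-1 letters TGANTCA, read on both strands, were held by 3.63% of the promoters of described genes. Among genes that fell by at least 1 on the log2 scale, 9.17% of 458 promoters held them. Among genes that rose by as much, the share was 1.19% of 253 promoters, which is 3 promoters. Other letters differed between these groups too: CCAAT was held by 24.9% of the falls and 40.3% of the rises, and TATAAA by 6.99% and 13.4%. Among the 8 promoters of AP-1 and immediate early genes that rose, 0 held TGANTCA. The part of AP-1 in these changes was not tested.

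Secreted factors and targets of YAP, TGF-beta, WNT and hedgehog signalling held some of the largest changes in both directions. YAP and TEAD form a transcription complex that answers to cell contact and stiffness. Of 26 described YAP and TEAD targets 5 rose and 9 fell, and the 5 were 8 without DMSO replicate 2 and 3 without DMSO replicate 1 or CPI203 replicate 1. Beside CTGF, CYR61, a related matricellular protein, rose from 10.1 and 10.9 FPKM to 30.2 and 29.02 FPKM (log2 change 1.42 ± 0.08, adjusted p = 1.42e-07). TEAD2, a DNA-binding partner of YAP, fell from 12.9 and 10.8 FPKM to 4.65 and 4.66 FPKM (log2 change -1.18 ± 0.10, adjusted p = 1.75e-06), and the forkhead gene FOXF2 fell from 3.18 and 2.91 FPKM to 0.599 and 0.629 FPKM (log2 change -1.32 ± 0.12, adjusted p = 3.6e-06). The list therefore did not move one way: 19.2% of it rose and 34.6% fell, against 15.9% and 21.9% of all described genes.

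Of 38 described genes of TGF-beta, activin and BMP signalling 9 rose and 10 fell, and 6 rose without DMSO replicate 1 or CPI203 replicate 2. ID2, a target of BMP signals that blocks basic helix-loop-helix factors, rose from 4.09 and 4.29 FPKM to 19.7 and 17.2 FPKM (log2 change 1.90 ± 0.13, adjusted p = 4.93e-07). GDF15, a stress-induced ligand, fell from 1.49 and 1.66 FPKM to 0.106 and 0.208 FPKM (log2 change -1.15 ± 0.13, adjusted p = 3.34e-05), and BMP7, a BMP ligand, fell from 2.01 and 2.18 FPKM to 1.08 and 1.04 FPKM (log2 change -0.59 ± 0.08, adjusted p = 9.91e-05). ACVR1, a type I receptor for BMPs and activins, rose from 11.03 and 11.7 FPKM to 19.4 and 18.4 FPKM (log2 change 0.69 ± 0.09, adjusted p = 6.11e-05). The rises made up 23.7% of this list and the falls 26.3%, against 15.9% and 21.9% of all described genes.

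Among 25 described genes of WNT signalling 6 rose and 8 fell, and the 6 were 3 without DMSO replicate 1. The rises made up 24.0% of this list and the falls 32.0%, against 15.9% and 21.9% of all described genes. The ligands split: WNT9A was among the largest rises, while WNT10B fell from 2.71 and 2.67 FPKM to 0.512 and 0.469 FPKM (log2 change -1.31 ± 0.11, adjusted p = 1.98e-06) and WNT3 fell from 1.31 and 1.29 FPKM to 0.205 and 0.225 FPKM (log2 change -0.92 ± 0.10, adjusted p = 2.46e-05). CTNNB1, which encodes beta-catenin, rose from 114 and 119 FPKM to 151 and 152 FPKM (log2 change 0.38 ± 0.09, adjusted p = 0.00456). In hedgehog signalling SMO, the membrane transducer, fell from 11.7 and 11.3 FPKM to 3.06 and 2.86 FPKM (log2 change -1.66 ± 0.11, adjusted p = 2.4e-07). Of the 16 described NOTCH and hedgehog genes 3 rose and 4 fell, and SMO was the 1 that fell without each library in turn. The 3 were 1 without DMSO replicate 1, and the 4 were 2 without DMSO replicate 2 or CPI203 replicate 1 and 1 without CPI203 replicate 2.

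Matrix and protease genes held large changes without a common direction. Of 46 described, 6 rose and 8 fell, close to the shares of all genes, and 11 rose without DMSO replicate 2 and as a corrected count. MMP1, interstitial collagenase, rose from 1.39 and 1.28 FPKM to 9.83 and 9.88 FPKM (log2 change 2.22 ± 0.12, adjusted p = 9.65e-08), and SERPINI1, an inhibitor of serine proteases named neuroserpin, rose from 1.12 and 0.688 FPKM to 7.81 and 6.85 FPKM (log2 change 2.14 ± 0.18, adjusted p = 1.9e-06). THBS1, an adhesive glycoprotein that activates TGF-beta, rose from 29.9 and 40.2 FPKM to 107 and 106 FPKM (log2 change 1.59 ± 0.18, adjusted p = 2.5e-05), while its paralog THBS2 fell from 3.17 and 5.25 FPKM to 0.635 and 0.454 FPKM (log2 change -1.73 ± 0.14, adjusted p = 1.64e-06). TIMP3, an inhibitor of metalloproteinases bound to matrix, fell from 299.9 and 318 FPKM to 143 and 145 FPKM (log2 change -1.10 ± 0.07, adjusted p = 2.58e-07). The chemokine receptor gene CCR2 was at 0 FPKM in all 4 libraries and was not described.

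Genes of DNA replication were lower with CPI203 more often than genes overall. The MCM proteins form the replicative helicase, and E2F factors switch on its genes with the rest of the replication machinery before S phase. Of 46 described replication genes and E2F targets 27 fell (58.7%) and 3 rose, with a median log2 change of -0.46; 22 or 23 fell without any 1 library and 21 without each in turn. The 3 that rose were 1 without DMSO replicate 1 or either CPI203 library, and the corrected count was 5. MCM2 fell from 64.6 and 63.2 FPKM to 22.1 and 23.9 FPKM (log2 change -1.44 ± 0.08, adjusted p = 9.65e-08), and MCM5 fell from 56.7 and 58.5 FPKM to 21.7 and 24.1 FPKM (log2 change -1.30 ± 0.09, adjusted p = 4.86e-07). E2F2, an activator of the family, fell from 3.38 and 3.48 FPKM to 0.608 and 0.7198 FPKM (log2 change -1.42 ± 0.09, adjusted p = 2.4e-07).

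Untreated cells lay below the CPI203 cells for many of these genes, but above them for MCM2 and MCM5. In untreated cells MCM2 stood at 39.2 and 39.3 FPKM and MCM5 at 29.8 and 30.4 FPKM, both between the treated groups. The median of the list, as a log2 difference from the untreated mean, was 0.62 and 0.65 in the DMSO libraries and 0.10 and 0.17 in the CPI203 libraries. Set against untreated cells, CPI203 cells had 20 of these genes higher and 7 lower. The fall of the list was thus measured from DMSO cells that themselves stood above the untreated ones.

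Promoters of E2F2 and MCM3 are shown because they hold the E2F letters TTTNNCGC, in capitals on either strand. The windows are chr1:23531234-23531483 and chr6:52284743-52284992, both on the minus strand, in GRCh38.p14, and the pair was chosen for the letters.
E2F2: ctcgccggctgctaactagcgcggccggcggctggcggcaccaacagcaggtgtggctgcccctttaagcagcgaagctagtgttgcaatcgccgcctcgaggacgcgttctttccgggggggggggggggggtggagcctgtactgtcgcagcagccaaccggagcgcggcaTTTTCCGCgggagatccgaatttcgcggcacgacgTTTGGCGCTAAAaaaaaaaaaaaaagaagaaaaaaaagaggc
MCM3: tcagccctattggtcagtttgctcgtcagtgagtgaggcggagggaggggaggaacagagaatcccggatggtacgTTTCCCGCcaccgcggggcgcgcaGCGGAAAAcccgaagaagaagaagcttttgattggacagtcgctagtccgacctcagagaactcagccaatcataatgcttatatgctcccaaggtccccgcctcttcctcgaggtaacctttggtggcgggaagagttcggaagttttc
MCM3, a helicase subunit, fell from 60.8 and 59.7 FPKM to 32.3 and 31.9 FPKM (log2 change -0.89 ± 0.07, adjusted p = 1.32e-06). TTTNNCGC was held by 11 of the 24 genes of the list that fell and had a promoter (45.8%), against 9.36% of described genes and 5.93% of all RefSeq promoters. The list was drawn from known E2F targets, and the share says nothing on the factor's part in these cells.

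Of 45 described genes of mitosis and the spindle 10 fell (22.2%) and 1 rose (2.22%), against 21.9% and 15.9% of all genes, with 5 and 6 lower without CPI203 replicates 1 and 2; 4 rose without DMSO replicate 2 and 0 without either CPI203 library. The corrected count of rises was 4. SPC25, a subunit of the kinetochore complex NDC80, fell from 12.9 and 10.96 FPKM to 5.87 and 5.39 FPKM (log2 change -0.96 ± 0.13, adjusted p = 7.89e-05). Against untreated cells 26 mitotic genes were higher in CPI203 and 1 was lower. Of 47 described genes of DNA repair and checkpoints 16 fell (34.04%) and 4 rose; 9 and 10 fell without CPI203 replicates 1 and 2, and the 4 were 2 without DMSO replicate 2, 1 without DMSO replicate 1 and 0 without either CPI203 library. RAD51D, a recombinase paralog, fell from 7.56 and 8.28 FPKM to 2.81 and 3.05 FPKM (log2 change -1.18 ± 0.10, adjusted p = 1.98e-06), and TIPIN, which steadies stalled forks, fell from 19.6 and 18.7 FPKM to 10.8 and 10.4 FPKM (log2 change -0.79 ± 0.09, adjusted p = 2.86e-05).

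**Figure D5:**
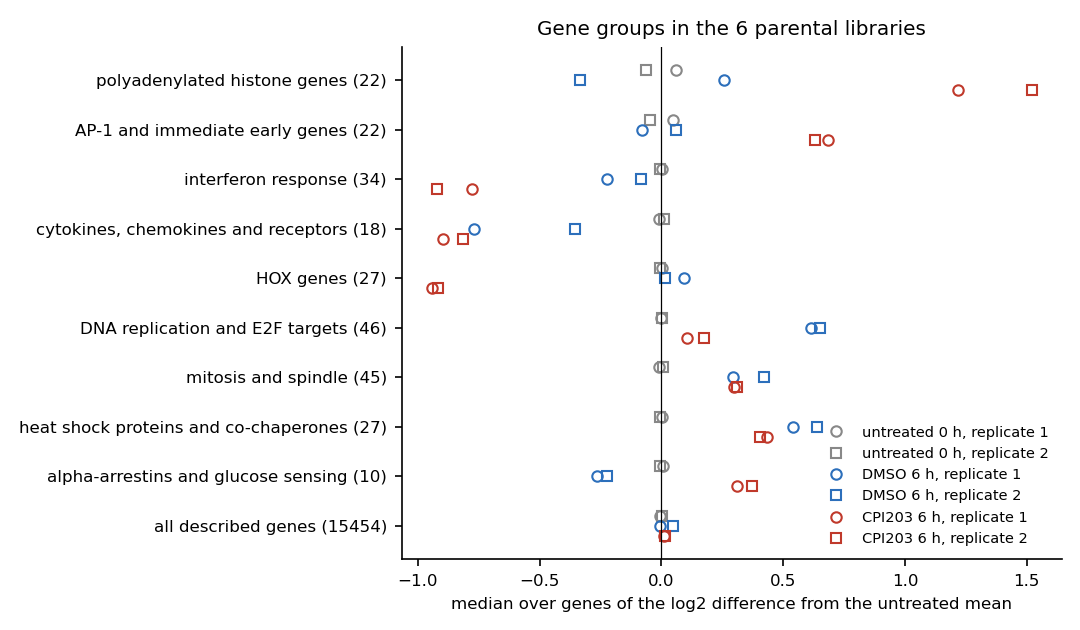
Median over the genes of each group of the log2 difference from the untreated mean (horizontal axis), for each of the 6 parental libraries. Circles and squares are replicates 1 and 2 of untreated (grey), DMSO (blue) and CPI203 (red) cells, with the number of genes in brackets; replication genes stand at 0.62 and 0.65 in DMSO and at 0.10 and 0.17 in CPI203, and HOX genes stand at 0.09 and 0.01 in DMSO and at -0.94 and -0.92 in CPI203.

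Among regulators of the G1 phase, the CDK inhibitor CDKN1A (p21) rose from 76.1 and 72.1 FPKM to 155 and 162 FPKM (log2 change 1.09 ± 0.12, adjusted p = 2.51e-05), and CDKN2D, an inhibitor of CDK4 and CDK6, rose from 14.998 and 11.6 FPKM to 23.9 and 25.2 FPKM (log2 change 0.85 ± 0.14, adjusted p = 0.000414). CDK4, a kinase that pairs with D-type cyclins, fell from 340.2 and 293 FPKM to 199 and 196 FPKM (log2 change -0.68 ± 0.15, adjusted p = 0.00314), and CDKN1C, a further CDK inhibitor, fell from 4.88 and 4.75 FPKM to 2.68 and 3.09 FPKM (log2 change -0.59 ± 0.09, adjusted p = 0.000197). Of 21 described genes 3 rose (14.3%) and 6 fell (28.6%), against 15.9% and 21.9% of all described genes, with a corrected count of 5 rises. MYC, a gene known to be sensitive to BET inhibitors in blood cancers, stood at 8.65 and 8.87 FPKM in DMSO and 10.1 and 9.11 FPKM in CPI203 and did not pass (log2 change 0.12, adjusted p = 0.405). MXD1, a partner of MAX that opposes MYC, rose from 1.76 and 2.19 FPKM to 4.68 and 4.69 FPKM (log2 change 0.94 ± 0.13, adjusted p = 0.000113). In the MYC network 20.0% of genes rose and 20.0% fell, near the shares of all described genes. Of the 10 described genes of the MYC network 2 rose and 2 fell, and MXD1 was the 1 that passed without each library in turn; the 2 that rose were 1 without DMSO replicate 1 or either CPI203 library, and the 2 that fell were 0 without CPI203 replicate 1 and 1 without any other library. The corrected count of rises was 4.

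Targets of p53 changed often and in both directions. Of 33 described, 15 rose (45.5%) and 10 fell (30.3%), both above the shares of all genes. GADD45B, a stress-response regulator of MAP kinase signalling, rose from 4.02 and 3.87 FPKM to 21.5 and 20.19 FPKM (log2 change 2.14 ± 0.15, adjusted p = 5.8e-07), and SESN3, a sestrin that restrains TORC1, rose from 1.67 and 2.63 FPKM to 12.4 and 11.5 FPKM (log2 change 2.05 ± 0.16, adjusted p = 1.09e-06). PHLDA3, a repressor of AKT, fell from 55.3 and 42.1 FPKM to 12.4 and 12.4 FPKM (log2 change -1.88 ± 0.21, adjusted p = 2.23e-05). TNFRSF10C, a decoy receptor for TRAIL, fell from 2.87 and 2.38 FPKM to 0.151 and 0.0661 FPKM (log2 change -1.71 ± 0.11, adjusted p = 3.23e-07), and AEN, an apoptosis-enhancing nuclease, fell from 35.04 and 35.7 FPKM to 17.8 and 18.7 FPKM (log2 change -0.92 ± 0.08, adjusted p = 2.76e-06).

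The series title names the apoptotic network and BH3-containing proteins. Anti-apoptotic BCL2 proteins bind the BH3 helix of their pro-apoptotic relatives and hold them inactive. PMAIP1 (NOXA), a BH3-only protein that neutralises MCL1, rose from 11.8 and 11.4 FPKM to 44.4 and 40.8 FPKM (log2 change 1.79 ± 0.08, adjusted p = 2.17e-08). BCL2L11 (BIM), a BH3-only protein that binds all anti-apoptotic members, rose from 2.46 and 3.33 FPKM to 5.04 and 5.7001 FPKM (log2 change 0.72 ± 0.12, adjusted p = 0.0007), and BNIP3L, a mitophagy receptor of the group, rose from 17.3 and 23.04 FPKM to 33.3 and 31.9 FPKM (log2 change 0.68 ± 0.12, adjusted p = 0.000821). Among the 10 described BH3-only and effector genes 4 rose and 3 fell; the 4 passed without each library in turn, and 1 fell without DMSO replicate 1 or either CPI203 library. BAX, an effector that permeabilises mitochondria, fell from 121 and 97.3 FPKM to 70.7 and 67.2 FPKM (log2 change -0.65 ± 0.17, adjusted p = 0.00845). BBC3 (PUMA), a BH3-only protein, fell from 5.46 and 4.3997 FPKM to 2.46 and 3.0003 FPKM (log2 change -0.67 ± 0.23, adjusted p = 0.0395), and BID, which caspase 8 cleaves, fell from 17.9 and 16.8 FPKM to 11.1 and 12.7 FPKM (log2 change -0.51 ± 0.12, adjusted p = 0.00415). BAX was lost without DMSO replicate 1 or CPI203 replicate 2, BBC3 without DMSO replicate 1 or either CPI203 library, and BID without CPI203 replicate 1. Untreated cells held 67.9 and 72.6 FPKM of BAX, near the CPI203 level, and 4.84 and 4.33 FPKM of BBC3, near the DMSO level. Against untreated cells 2 of the 10 BH3-only and effector genes were higher in CPI203, PMAIP1 and BCL2L11, and 0 were lower. BCL2L1, which encodes BCL-XL, fell from 21.9 and 21.2 FPKM to 14.2 and 12.4 FPKM (log2 change -0.66 ± 0.08, adjusted p = 5.04e-05), and of the 5 described anti-apoptotic genes 2 fell (40.0%) and none rose. The 2 were 1 without DMSO replicate 1, DMSO replicate 2 or CPI203 replicate 1, and 1 gene rose without either DMSO library; the corrected count of rises was 1.

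Death receptor and caspase genes followed, with 16.7% of them higher and 29.2% lower, against 15.9% and 21.9% of all described genes. CFLAR (FLIP), an inhibitor of caspase 8, fell from 4.75 and 5.302 FPKM to 1.203 and 1.26 FPKM (log2 change -1.43 ± 0.17, adjusted p = 4.55e-05). CASP4, the inflammatory caspase that senses bacterial lipid, fell from 24.2 and 21.7 FPKM to 9.37 and 9.24 FPKM (log2 change -1.21 ± 0.14, adjusted p = 3.87e-05). Of 24 described genes 7 fell (29.2%) and 4 rose; 4 fell without DMSO replicate 2 or CPI203 replicate 1, and 1 and 2 rose without CPI203 replicates 1 and 2. The corrected count of rises was 7.

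Alpha-arrestin and glucose-sensing genes had the highest share of rises among lists of at least 10 genes. TXNIP, an alpha-arrestin that limits glucose uptake, is induced by sugar phosphates through MondoA. It rose from 8.38 and 8.83 FPKM to 39.03 and 41.8 FPKM (log2 change 2.11 ± 0.08, adjusted p = 1.93e-09). Untreated cells held 62.3 and 63.5 FPKM, above the CPI203 level, so the order of levels was untreated, CPI203, DMSO from high to low. ARRDC3 rose from 8.26 and 10.7 FPKM to 22.2 and 23.7 FPKM (log2 change 1.20 ± 0.15, adjusted p = 4.72e-05) to about its untreated level of 19.98 and 21.8 FPKM, and the glucose transporter gene SLC2A3 rose from 8.59 and 11.96 FPKM to 28.5 and 29.4 FPKM (log2 change 1.42 ± 0.19, adjusted p = 0.000104). Of 10 described genes 8 rose (80.000%) and 1 fell, with a median of 0.88, against 3 higher and 2 lower when untreated cells were the reference.

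Other metabolic and stress programs rose in part. Of 30 described genes of hypoxia and glycolysis 10 rose (33.3%) and 2 fell. ADM, a vasodilator peptide, rose from 3.602 and 3.799 FPKM to 10.4 and 9.36 FPKM (log2 change 1.21 ± 0.10, adjusted p = 1.81e-06), and NDRG1, a hypoxia-induced growth regulator, rose from 48.3 and 51.5 FPKM to 85.998 and 86.7 FPKM (log2 change 0.78 ± 0.08, adjusted p = 8.73e-06). The 2 that fell were both bifunctional enzymes that set fructose 2,6-bisphosphate: PFKFB3 from 43.4 and 48.9 FPKM to 24.6 and 25.03 FPKM (log2 change -0.87 ± 0.12, adjusted p = 0.000163) and PFKFB4 from 76.5 and 80.3 FPKM to 48.9 and 51.1 FPKM (log2 change -0.64 ± 0.10, adjusted p = 0.000227).

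Of 29 described genes of NRF2 and oxidative defence 12 rose (41.4%) and 3 fell, and 8 rose without CPI203 replicate 1. PGD, of the pentose phosphate pathway, rose from 67.03 and 63.4 FPKM to 117 and 122 FPKM (log2 change 0.86 ± 0.07, adjusted p = 2.41e-06), and SRXN1, which repairs peroxiredoxins, rose from 28.7 and 26.5 FPKM to 43.4 and 41.7 FPKM (log2 change 0.61 ± 0.07, adjusted p = 4.26e-05). KEAP1, the adaptor that targets NRF2 for breakdown, fell from 36.1 and 31.3 FPKM to 17.2 and 17.6 FPKM (log2 change -0.91 ± 0.17, adjusted p = 0.000948). Of 41 described autophagy and lysosome genes 12 rose (29.3%) and 1 fell, with 8 higher without CPI203 replicate 1 and 2 lower without either DMSO library or CPI203 replicate 2; the corrected count of falls was 5. MAP1LC3B, the membrane protein of autophagosomes, rose from 28.5 and 29.4 FPKM to 50.8 and 49.9 FPKM (log2 change 0.78 ± 0.07, adjusted p = 4.73e-06), and CTSZ, a lysosomal protease, fell from 246 and 206 FPKM to 126 and 125 FPKM (log2 change -0.84 ± 0.11, adjusted p = 9.77e-05).

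Of 31 described genes of cholesterol and fatty acid synthesis 8 rose and 4 fell, and the 4 were 2 without CPI203 replicate 1. LSS, which closes the sterol rings, rose from 6.47 and 6.27 FPKM to 13.7 and 15.8 FPKM (log2 change 1.09 ± 0.10, adjusted p = 4.43e-06), and IDI1, an isoprenoid isomerase, rose from 19.7 and 20.8 FPKM to 39.2 and 38.4 FPKM (log2 change 0.91 ± 0.09, adjusted p = 1.05e-05). ELOVL6, an elongase of fatty acids, fell from 15.9 and 22.5 FPKM to 8.13 and 8.099 FPKM (log2 change -1.13 ± 0.17, adjusted p = 0.000244). The rises made up 25.8% of this list and the falls 12.9%, against 15.9% and 21.9% of all described genes. For genes of polyamine metabolism these shares were 27.3% and 9.09%. In polyamine metabolism SAT1 rose most, and of 11 described genes 3 rose and 1 fell, with SAT1 the 1 that passed without each library in turn. The 3 were 1 without either CPI203 library and 6 as a corrected count, and the 1 that fell was 2 without DMSO replicate 2 and 0 without any other library.

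Heat shock and unfolded protein genes did not move one way. Of 27 described heat shock genes 12 fell (44.4%) and 6 rose, and 8 fell without DMSO replicate 1 or CPI203 replicate 2. DNAJB1, a co-chaperone of HSP70, rose from 69.3 and 68.2 FPKM to 171 and 168 FPKM (log2 change 1.29 ± 0.08, adjusted p = 1.77e-07). SERPINH1, the collagen chaperone HSP47, fell from 74.3 and 70.1 FPKM to 20.8 and 21.7 FPKM (log2 change -1.72 ± 0.13, adjusted p = 1.24e-06), and HSPB8, a small heat shock protein, fell from 3.32 and 2.96 FPKM to 0.493 and 0.6098 FPKM (log2 change -1.42 ± 0.09, adjusted p = 1.86e-07). Against untreated cells 17 of the 27 genes were higher in CPI203 and 5 lower. Of 34 described genes of ATF4 and the unfolded protein response 8 rose (23.5%) and 7 fell (20.6%), with a corrected count of 15 rises. The shares of all described genes were 15.9% and 21.9%. ASNS, asparagine synthetase, rose from 53.02 and 47.03 FPKM to 84.8 and 87.1 FPKM (log2 change 0.77 ± 0.08, adjusted p = 1.68e-05), while TRIB3, a pseudokinase induced by the same factor, fell from 21.8 and 19.1 FPKM to 10.5 and 9.53 FPKM (log2 change -0.96 ± 0.13, adjusted p = 0.000129).

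Of 42 described genes of ribosome biogenesis and the nucleolus 14 fell (33.3%, against 21.9% of all genes) and 2 rose, 26 did not pass, and the corrected count of falls was 23; 12 to 15 fell without any 1 library, and the 2 were 0 without DMSO replicate 2 or either CPI203 library. GAR1, of the particles that place pseudouridine, fell from 45.8 and 37.3 FPKM to 19.4 and 17.7 FPKM (log2 change -1.11 ± 0.10, adjusted p = 2.77e-06), and BRIX1, a factor of the large subunit, fell from 77.3 and 70.7 FPKM to 37.7 and 35.7 FPKM (log2 change -0.99 ± 0.09, adjusted p = 5.57e-06). Against untreated cells 10 genes of the list were higher in CPI203 and 7 lower.

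Among 53 described chromatin regulators 12 fell (22.6%) and 6 rose, near the shares of all genes; the 12 were 8 without CPI203 replicate 1 or 2, and the 6 were 3 without DMSO replicate 1 or either CPI203 library. The corrected count of falls was 19. The class IIa deacetylase genes HDAC7 and HDAC5 fell, HDAC7 from 10.5 and 9.299 FPKM to 2.63 and 2.72 FPKM (log2 change -1.56 ± 0.11, adjusted p = 4.93e-07) and HDAC5 from 38.6 and 32.6 FPKM to 17.4 and 15.5 FPKM (log2 change -1.07 ± 0.14, adjusted p = 7.43e-05). KAT2A, the acetyltransferase GCN5, fell from 23.1 and 17.98 FPKM to 8.53 and 8.72 FPKM (log2 change -1.15 ± 0.11, adjusted p = 7.93e-06). SIRT1, an NAD-dependent deacetylase, rose from 6.64 and 8.66 FPKM to 14.4 and 13.8 FPKM (log2 change 0.81 ± 0.15, adjusted p = 0.00115).

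Mediator bridges enhancer-bound factors and polymerase II. Of 32 described subunits 6 fell and 5 rose, and the 5 were 1 without DMSO replicate 1 and 2 without either CPI203 library, while 4 fell without each of those 3. The corrected count of rises was 10. In the reported fit 15.6% of the subunits rose and 18.75% fell, close to the 15.9% and 21.9% of all described genes. MED24, a tail subunit, fell from 21.5 and 23.2 FPKM to 10.9 and 10.99 FPKM (log2 change -0.97 ± 0.10, adjusted p = 1.75e-05), and MED12, of the kinase module, fell from 14.8 and 12.6 FPKM to 7.74 and 7.43 FPKM (log2 change -0.77 ± 0.11, adjusted p = 0.00014). Of 36 described splicing factors 10 fell and 8 rose; 5 or 6 fell and 3 or 4 rose without DMSO replicate 1 or either CPI203 library. In the reported fit 22.2% of the splicing factors rose and 27.8% fell, against 15.9% and 21.9% of all described genes. SF3B3, of the U2 particle, fell from 159 and 146 FPKM to 93.3 and 86.6 FPKM (log2 change -0.75 ± 0.09, adjusted p = 3.94e-05), HNRNPD, which binds AU-rich RNA, fell from 175 and 165 FPKM to 104 and 99.97 FPKM (log2 change -0.74 ± 0.08, adjusted p = 2.53e-05), and the splicing regulator TRA2B rose from 142 and 142 FPKM to 209 and 207 FPKM (log2 change 0.55 ± 0.09, adjusted p = 0.000404).

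Of 15 described genes of the circadian clock 4 rose (26.7%) and 4 fell (26.7%), against 15.9% and 21.9% of all described genes. CRY1, a repressor of CLOCK and BMAL1, rose from 7.52 and 8.997 FPKM to 16.7 and 14.99 FPKM (log2 change 0.87 ± 0.11, adjusted p = 7.41e-05), and NFIL3, a repressor of D-box genes, rose from 3.24 and 3.21 FPKM to 9.01 and 9.16 FPKM (log2 change 1.26 ± 0.10, adjusted p = 1.23e-06). NR1D1 (REV-ERB alpha), which represses BMAL1, fell from 7.94 and 7.27 FPKM to 3.88 and 3.64 FPKM (log2 change -0.85 ± 0.10, adjusted p = 2.47e-05), and NPAS2, a paralog of CLOCK, fell from 56.6 and 60.2 FPKM to 38.8 and 38.5 FPKM (log2 change -0.58 ± 0.09, adjusted p = 0.000264). BHLHE41 (DEC2), a repressor of CLOCK and BMAL1 like CRY1, fell from 1.11 and 1.697 FPKM to 0.362 and 0.128 FPKM (log2 change -0.95 ± 0.15, adjusted p = 0.000399), so repressors were found in both directions.

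Markers of other cell types that fell with CPI203 were low throughout. ROBO4, an endothelial guidance receptor, stood at 3.95 and 4.97 FPKM in DMSO and 0.335 and 0.3999 FPKM in CPI203 (log2 change -1.99 ± 0.16, adjusted p = 1.66e-06), with 1.76 and 2.07 FPKM in untreated cells. PDGFRB, a marker of fibroblasts and pericytes, stood at 2.12 and 2.55 FPKM in DMSO and 0.724 and 0.701 FPKM in CPI203 (log2 change -0.96 ± 0.13, adjusted p = 0.000137), and CLDN4, an epithelial tight junction protein, at 7.48 and 6.35 FPKM in DMSO and 3.09 and 3.07 FPKM in CPI203 (log2 change -0.95 ± 0.16, adjusted p = 0.00045). PECAM1, CDH1, MS4A1 and HBB were at 0 in all 6 parental libraries, but the epithelial keratin genes KRT18 and KRT8 were expressed in all 6.

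The direction of change varied with the kind of transcript. Of 11546 described protein-coding genes 17.5% were higher and 24.5% lower. Of 295 intergenic long noncoding genes 12.5% were higher and 35.3% lower, and of 349 antisense genes 9.46% were higher and 30.9% lower. Of 2255 processed pseudogenes 9.58% were higher and 6.83% lower. Reads of these copies can come from their parent genes, and antisense reads cannot be told from those of the opposite gene without strand. By GC content of the longest transcript, the share of genes that fell went from 11.7% below 40% GC to 32.0% at 60% GC or more, and the share that rose went from 22.7% to 9.48%. DMSO replicate 1 differed from replicate 2 along the same axis, by medians of -0.27 and 0.14 in these outer bins, and the part of this in the shares was not tested.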

How the data were processed

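Total RNA of A375 cells, extracted with TRIzol or an RNeasy kit per the labels' protocols, had been sequenced. The submitters' processing notes name TopHat 1.4.1, Cufflinks and the build hg19; the annotation, strandedness and Cufflinks options were not given in the sources used here. Each deposited value is an FPKM of 1 gene, computed by the authors; the gene has a symbol, an Ensembl identifier and a locus, and locus starts, which count from 0, were shifted by 1. No counts were used, so depth is unknown and no counting error could be given.

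Groups came from the sample titles. Values were analysed as log2(FPKM + 1), so that a log2 change understates the change of low genes. The model was limma 3.58.1 (R 4.3.3, trend and robust options) over the 16935 genes that reached 1 FPKM in 2 or more of the 18 A375 libraries. By their titles 12 of these libraries come from resistant clones 1 and 4 (untreated, DMSO and CPI203), which supply 6 of the 9 residual degrees of freedom. The clone label of their untreated libraries reads parental. The model had 1 mean for each of 9 groups, with 9 residual degrees of freedom and 3.43 prior ones (median). P-values are two-sided with Benjamini-Hochberg adjustment across the fitted genes, and the threshold was an adjusted p of 0.05. Results are given for the 15454 genes described. In this text a gene rose or fell only if it passed, and an error after a log2 change is its SE with n = 2 libraries a group. The fit was also run on simulated data with the same spread per gene in all groups. That run cannot speak to the wider spread between the DMSO libraries.

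The genes described, the gene lists and the alternatives were chosen with earlier results of these data known. Genes named are up to 12 largest rises and 12 largest falls that passed without each of the 4 libraries, averaged 5 FPKM or more in the higher group and did not overlap between groups, up to 3 members of each list and direction with the smallest adjusted p, and 15 genes set by name; of the list members, those are named that the text needs, and some genes these rules select are not reported here. Lists are described by counts and medians, with no test. Transcript lengths, GC content and biotypes came from GENCODE 29, matched by Ensembl identifier for 97.0% of the genes fitted. Promoters are RefSeq sequences of GRCh38.p14, matched by symbol for 9869 described genes. Same-numbered replicates of DMSO and CPI203 were not paired by the labels.

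Alternatives were another pseudocount (0.1), no filter or one at 5 FPKM, the genes of the 4 libraries fitted alone, scaling by quantiles or by median ratio, plain limma (no trend, not robust), array weights, a replicate block, only the 4 libraries, each of the 4 left out, a transcript length and GC correction, untreated cells as reference and a log2 change of at least 1. Chosen after seeing the data were the 6 parental libraries alone, the same with array weights, and a fit without 3 A375 libraries that stand apart, among them DMSO replicate 1.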

Additional observations from a re-analysis of the deposited data

How the results depend on the processing

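The count of genes that passed stayed within 1.5 times of 5837 under every alternative but 2: it was 3724 with only the 4 compared libraries and 1001 with a log2 change of at least 1. The higher genes were 1398 with only the 4 libraries, 1623 with the 6 parental libraries and array weights and 342 with a log2 change of at least 1, and ran from 1512 to 2867 without each of the 4 libraries. The lower genes were 659 with a log2 change of at least 1. Quantile scaling gave 3141 higher and 3141 lower genes, an even split, against 42.1% higher in the reported fit. With the replicate number as a block 2374 genes were higher and 3336 lower; the labels do not pair the replicates, and their differences correlated at 0.0908 over genes, so the block is given as a count only. Without each of the 4 libraries the log2 change of BRD3 ran from -0.19 to 0.26, with -0.19 without DMSO replicate 1 and -0.024 without CPI203 replicate 1; it was -0.19 without the 3 libraries that stand apart and -0.025 against untreated cells. Against untreated cells TXNIP was at -0.63, LYZ at 0.22 and TUBB at 0.35. The cause of these changes was not tested.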

Other observations

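Families outside the lists were looked at after their values had been seen. Over all described genes 15.9% rose and 21.9% fell, and the family counts are to be read beside these shares. HOX genes, which keep positional identity, were lower with CPI203 across all 4 clusters: of 27 described 25 fell and 1 rose, with a median log2 change of -1.004, and 23 to 25 fell without any 1 of the 4 libraries and 23 after the length and GC correction. HOXB8 fell from 11.7 and 11.97 FPKM to 1.904 and 1.62 FPKM (log2 change -2.22 ± 0.15, adjusted p = 3.53e-07), HOXD13 fell from 5.68 and 5.71 FPKM to 1.03 and 0.966 FPKM (log2 change -1.75 ± 0.09, adjusted p = 5.96e-08), and HOXC10 fell from 33.2 and 31.7 FPKM to 11.9 and 11.8 FPKM (log2 change -1.38 ± 0.08, adjusted p = 1.8e-07). HOXC13 did not pass, at 7.34 and 7.37 FPKM in DMSO and 6.84 and 7.47 FPKM in CPI203. Many HOX genes overlap antisense transcripts, and without strand their reads cannot be told apart.

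Retinoid genes were also lower: of 12 described receptors and enzymes 8 fell and 1 rose, and the 1 was lost without DMSO replicate 1 or either CPI203 library and was 3 after the length and GC correction. Beside RXRG, RARG, a retinoic acid receptor, fell from 32.6 and 32.95 FPKM to 6.14 and 6.24 FPKM (log2 change -2.23 ± 0.08, adjusted p = 1.67e-09), and DHRS3, which reduces retinal, fell from 69.2 and 49.7 FPKM to 11.4 and 11.6 FPKM (log2 change -2.25 ± 0.14, adjusted p = 2.34e-07). In a family of tubulin genes and genes of the gamma-tubulin complex, 10 of 17 rose and 2 fell. The 2 that fell were TUBGCP3 (log2 change -0.55) and TUBGCP2 (log2 change -0.42), both genes of that complex, and no tubulin gene fell. TUBGCP6, of the same complex, was among the 10 that rose (log2 change 0.34), and TUBGCP4 did not pass. For this family and the ribosomal protein genes below, the shares of all described genes were 15.9% higher and 21.9% lower. TUBB3 rose from 168 and 153 FPKM to 651 and 651 FPKM (log2 change 2.02 ± 0.14, adjusted p = 4.57e-07) and TUBB4B rose from 348 and 295 FPKM to 801 and 828 FPKM (log2 change 1.34 ± 0.16, adjusted p = 4.54e-05), while TUBB stood at 500.5 and 459 FPKM in DMSO and 422 and 433 FPKM in CPI203 and did not pass (adjusted p = 0.14). Of 74 described genes for mitochondrial ribosomal proteins 30 fell and 1 rose, with a median of -0.32, but 16 fell without DMSO replicate 1 or either CPI203 library. Of 82 genes for cytosolic ribosomal proteins and their like-named paralogs 2 fell and none rose in limma. The 2 were the paralogs RPL7L1 (log2 change -0.51) and RPL26L1 (log2 change -0.34). RPL26L1 was lost without DMSO replicate 1 or either CPI203 library. After the length and GC correction 5 of the family fell and 2 rose.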
